A study of Mus musculus with 20 samples.

Results

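The chromosome 3 guanylate-binding protein genes Gbp5, Gbp7, Gbp3, Gbp2b and Gbp2 and the interferon-induced genes Ifi44 and Ifi44l were described in hematopoietic stem cells (HSCs) of Control mice and of mice labelled Kdm6b-KO. The 7 genes were taken as a named list out of 49671 gene IDs in the count files, and all 7 were found. They were chosen because earlier results from these same RNA counts showed near-absent and abundant counts side by side among paralogs, so their RNA differences between the groups are given as a description, without a test.

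HSCs were sorted from C57BL/6 mice at 8 weeks of age as cells negative for lineage markers and CD48 and positive for cKit, Sca1 and CD150. The Control RNA libraries came from Vav-CRE:Kdm6b+/+ mice and the libraries labelled Kdm6b-KO from Vav-CRE:Kdm6b fl/fl mice, so all of them carried the Cre transgene, which the Vav driver expresses across the blood system. Kdm6b encodes a demethylase that removes methyl groups from lysine 27 of histone H3. Each group had 3 RNA libraries, each made from marrow of 3 male and 3 female mice pooled and called a biological replicate in the labels. ATAC-seq, in which a transposase cuts accessible DNA, was done on 10000 sorted HSCs per library, in 3 libraries titled Control and 3 titled 6bKO. The genotype label of all 6 ATAC libraries reads wild-type, so these groups rest on the titles alone, and the second is called the libraries titled 6bKO.

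Guanylate-binding proteins are large GTPases that interferons, above all interferon gamma, induce in many cell types, and that assemble on bacteria and on the vacuoles of intracellular parasites. Gbp2b, long known in the mouse as Gbp1, is the gene whose inducibility by interferon is known to differ among inbred mouse strains. Gbp2 and Gbp7 take part in defence against Toxoplasma and bacteria in mouse macrophages, and Gbp5 is known for promoting inflammasome assembly. Ifi44 and Ifi44l encode related proteins induced mainly by type I interferons in antiviral responses. HSCs are known to leave quiescence after acute exposure to interferons.

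In the GRCm38.p6 assembly the 5 Gbp genes lie on the plus strand within 141 kb of chromosome 3, in the order Gbp5 (chr3:142496934-142522344), Gbp7 (chr3:142530336-142550151), Gbp3 (chr3:142560016-142573213), Gbp2b (chr3:142594816-142619179) and Gbp2 (chr3:142620663-142638008). Gbp2b ends 1483 bp before Gbp2 begins. The Ifi44 pair lies 9.09 Mb farther along on the minus strand, with Ifi44 at chr3:151730922-151749910 and Ifi44l at chr3:151758737-151762891, 8826 bp apart. All 7 are protein-coding genes. Gbp2 overlaps Mir6381 and Gbp3 overlaps Gm40158, and no source used here gives the strand setting of the counting, so reads of these overlapping genes may not be told apart.

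The 250 bases before the start site of Gbp2b and Ifi44l are shown beside those of their adjacent paralogs Gbp2 and Ifi44, because the paralogs within each of these pairs had unlike RNA values. They are RefSeq sequences of GRCm38.p6, written 5′ to 3′ on the gene's strand, from chr3:142594597-142594846 (plus), chr3:142620413-142620662 (plus), chr3:151762892-151763141 (minus) and chr3:151749911-151750160 (minus). Capitals mark the core of the interferon-stimulated response element, searched as the half-site GAAA, any 2 bases and GAAA again, or the reverse complement with TTTC as the half-site.
Gbp2b: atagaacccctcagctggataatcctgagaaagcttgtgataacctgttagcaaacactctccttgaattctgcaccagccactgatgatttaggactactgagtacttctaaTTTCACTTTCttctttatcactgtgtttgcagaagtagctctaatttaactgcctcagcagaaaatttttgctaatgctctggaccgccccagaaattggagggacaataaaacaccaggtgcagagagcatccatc
Gbp2: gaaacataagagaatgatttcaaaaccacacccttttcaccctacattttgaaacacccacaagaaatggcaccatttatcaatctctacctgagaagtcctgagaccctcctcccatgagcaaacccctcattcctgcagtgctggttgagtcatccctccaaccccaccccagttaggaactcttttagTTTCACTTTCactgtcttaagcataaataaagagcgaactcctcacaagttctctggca
Ifi44l: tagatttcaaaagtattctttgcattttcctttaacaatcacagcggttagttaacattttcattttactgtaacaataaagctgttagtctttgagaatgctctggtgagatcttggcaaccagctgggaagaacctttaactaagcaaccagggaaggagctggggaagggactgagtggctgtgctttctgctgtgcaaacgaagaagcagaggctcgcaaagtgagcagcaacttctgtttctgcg
Ifi44: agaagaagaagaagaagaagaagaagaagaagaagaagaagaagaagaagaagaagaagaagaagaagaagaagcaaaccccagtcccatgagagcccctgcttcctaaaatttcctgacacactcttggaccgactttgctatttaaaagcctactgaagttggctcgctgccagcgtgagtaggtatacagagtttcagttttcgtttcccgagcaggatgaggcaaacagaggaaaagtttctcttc

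Both strands of each window, from 250 bases before to 50 after the start site, were searched. The response element core was found for all 5 Gbp genes and in neither Ifi44 window, against 3.44% of 32851 mouse promoter windows of the same length. Gbp2b and Gbp2 held the same 10 letters, TTTCACTTTC, at bases -137 to -128 and at bases -59 to -50, counted back from each window's start site, which for Gbp2b lies 31 bases inside the annotated gene. The copies of Gbp5, Gbp7 and Gbp3 began at bases -165, -53 and -45, and Gbp3 held another that overlapped the first. Its second annotated start had no copy. The core of the gamma-activated site, searched as TTC, any 3 bases and GAA, was present in 8.30% of windows and, among the 7 genes, in those of Gbp5 and Gbp7. A match is a description of letters and not a bound site, and its lack says nothing about any factor.

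Before the genes themselves, the libraries were compared with their labels. Assigned counts ranged from 6793873 to 13797890 in Control and from 8683106 to 19336121 in Kdm6b-KO, so that 3 counts equal 0.155 to 0.442 per 1000000 assigned counts. The CPM of genes are counts per 1000000 after a further scaling of library sizes (TMM), so they differ slightly from that measure. Kdm6b was at 91.7, 282 and 220 CPM in Control and at 142, 201 and 191 CPM in Kdm6b-KO. These whole-gene counts overlapped and do not check the deletion, since no source used here names the exons deleted. All 10 HSC markers were detected in every library, and their summed level was 3915 to 6436 CPM in Control and 4459 to 4755 CPM in Kdm6b-KO. All 9 neutrophil markers were detected in every library, with sums of 3635, 1175 and 2098 CPM in Control and of 4282, 192 and 191 CPM in Kdm6b-KO. All 7 erythroid markers were also detected, with sums of 201 to 353 CPM in Control and of 41.2 to 227 CPM in Kdm6b-KO.

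Ifi44l was close to absent in Control and present in every Kdm6b-KO library. It had 1, 1 and 0 counts in Control replicates 1, 2 and 3 and 452, 264 and 292 counts in Kdm6b-KO replicates 1, 2 and 3. On the CPM scale this was 0.153, 0.127 and 0 against 39.3, 28.6 and 14.4. Every Control library lay below the level of 3 counts, every Kdm6b-KO library far above it, and the mean in Kdm6b-KO was 27.5 ± 12.5 CPM (SD, n = 3). The ratio of summed counts, scaled to library size, was 346, with an exact 95% binomial interval of 95.7 to 2865 that covers counting error only. In bulk libraries such as these, a lower count from fewer cells of a type and from less RNA per cell cannot be told apart.

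Gbp2b showed the same arrangement in the other gene cluster. It had 6, 3 and 15 counts in Control and 475, 267 and 266 counts in Kdm6b-KO. Its level was 0.919, 0.380 and 1.09 CPM in Control, a mean of 0.797 ± 0.371 (SD, n = 3), and 41.3, 29.0 and 13.1 CPM in Kdm6b-KO, a mean of 27.8 ± 14.1 (SD, n = 3). The lowest Kdm6b-KO library was above the highest Control library. The fitted log2 fold change was 5.05 with a standard error of 0.50, and 4 of the 15185 genes tested, Gbp2b included, had one at least as large in either direction, a share of 0.0263%. Since these counts chose the gene, nothing is read from that share.

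The paralogs beside them had similar levels in both groups. Ifi44, the neighbour and closest relative of Ifi44l in the list, was at 94.0, 117 and 130 CPM in Control and at 122, 120 and 87.1 CPM in Kdm6b-KO. Its groups overlapped, with means of 114 ± 18.2 and 110 ± 19.5 CPM (SD, n = 3 each) and a log2 fold change of -0.05 with a standard error of 0.20. Gbp2, the next gene after Gbp2b, was at 128, 133 and 133 CPM in Control and at 131, 102 and 117 CPM in Kdm6b-KO. Its groups overlapped as well, with means of 131 ± 3.34 and 117 ± 14.3 CPM (SD, n = 3 each) and a log2 fold change of -0.17 with a standard error of 0.18.

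Of the remaining Gbp genes, Gbp3 and Gbp5 overlapped between the groups and Gbp7 did not. Gbp3 was at 69.8, 99.3 and 84.4 CPM in Control and at 98.7, 80.3 and 89.1 CPM in Kdm6b-KO, with a log2 fold change of 0.08 and a standard error of 0.19. Gbp5 was at 18.1, 26.4 and 24.5 CPM in Control and at 17.0, 17.7 and 23.1 CPM in Kdm6b-KO, with a log2 fold change of -0.25 and a standard error of 0.25. The means of Gbp3 were 84.5 ± 14.7 and 89.4 ± 9.22 CPM (SD, n = 3 each), and Gbp5 had a Control SD of 4.34 CPM and a Kdm6b-KO mean of 19.3 ± 3.33 CPM, so neither gene differed by more than the spread within Control. Gbp7 was at 571, 813 and 582 CPM in Control and at 489, 419 and 461 CPM in Kdm6b-KO, with means of 656 ± 136 and 456 ± 35.1 CPM (SD, n = 3 each). Every Kdm6b-KO library was below every Control library for Gbp7, and the log2 fold change was -0.52 with a standard error of 0.22.

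**Figure D1:**
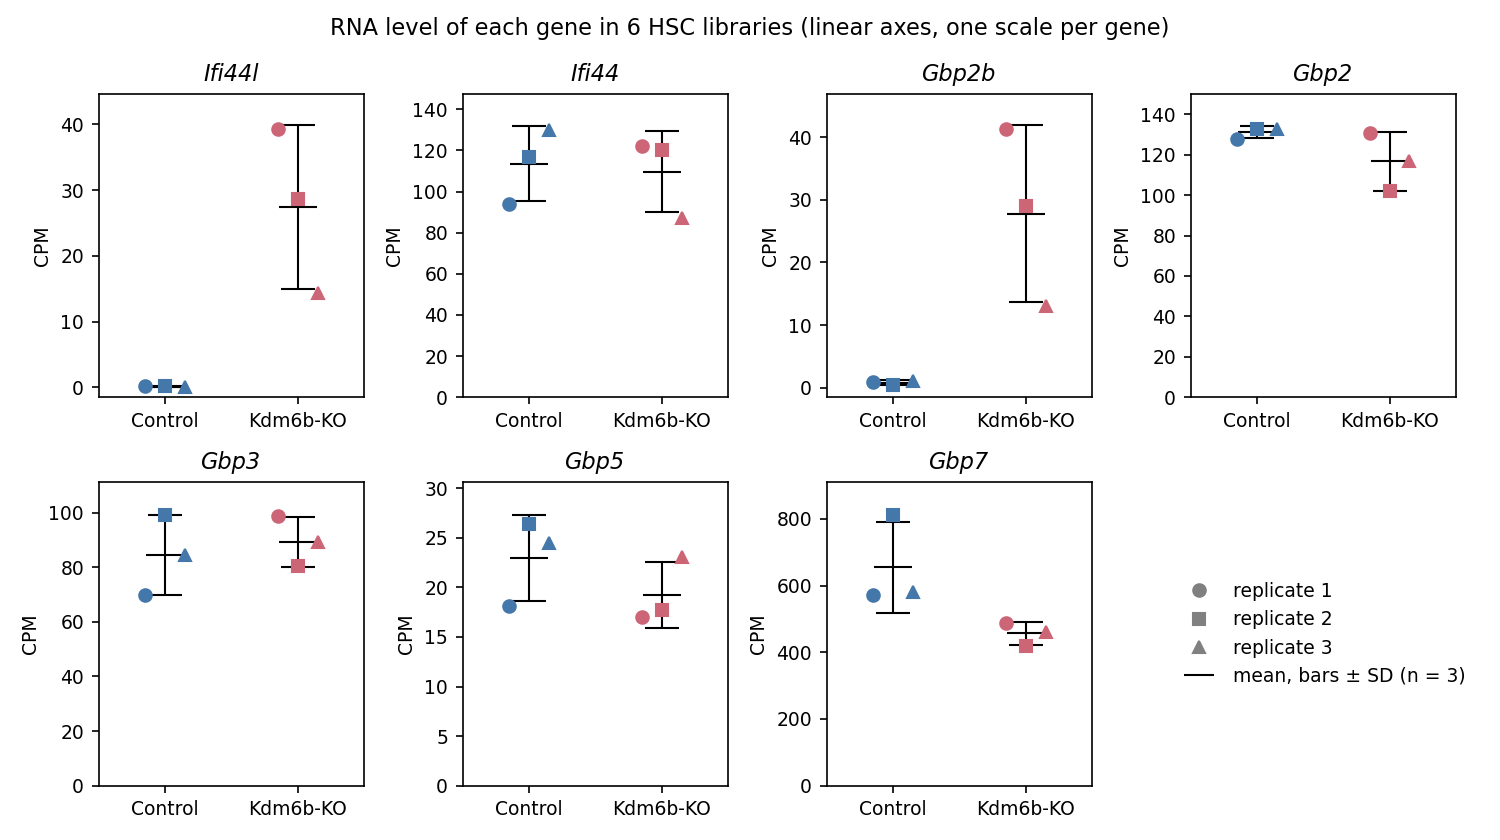
RNA level of each of the 7 genes in CPM (linear axes, with a scale of its own for each gene) in 3 Control and 3 Kdm6b-KO libraries, with points for libraries, long ticks for means and bars for SD. Ifi44l and Gbp2b sit near 0 in Control and between 13.1 and 41.3 CPM in Kdm6b-KO, while Ifi44, Gbp2, Gbp3 and Gbp5 overlap between the groups.

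Groups did not overlap for 3 of the 7 genes, Ifi44l, Gbp2b and Gbp7, where 20.5% of all tested genes had groups that did not overlap, 10.9% higher and 9.51% lower in Kdm6b-KO. Since these counts chose the genes, nothing is read from that share. The median log2 fold change was -0.05 over the 7 genes and 0.00 over all tested genes, and 3 of the 7 values were positive. The signs of Ifi44 and Gbp3 were not stable: Ifi44 was at 0.10 with library totals, where the median of all genes was 0.15, and between -0.17 and 0.09 with 1 library left out, and Gbp3 between -0.04 and 0.21. About 37.6% to 46.8% of the reads in each file had no unique alignment, and these genes have near copies, so the split of reads among paralogs is uncertain.

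Within each family the makeup of the counts differed between the groups. Gbp2b made up 0.0355% to 0.132% of the counts of the 5 Gbp genes in Control and 1.87% to 5.32% in Kdm6b-KO. Gbp7 made up 70.5% to 75.8% in Control against 62.9% to 65.5% in Kdm6b-KO, and Gbp3 8.86% to 10.2% against 12.4% to 12.7%. Neither of these ranges overlapped between groups, whereas those of Gbp2 and Gbp5 did. For CPM, groups did not overlap for 20.5% of single tested genes. Since these counts chose the genes, nothing is read from the ranges that did not overlap. Shares within a library depend on each other, and the CPM of Gbp3 overlapped between the groups. Ifi44l made up at most 0.163% of the counts of the Ifi44 pair in Control and 14.2% to 24.4% in Kdm6b-KO. These are shares of counts, not divided by transcript length, so they do not rank the genes by number of transcripts.

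**Figure D2:**
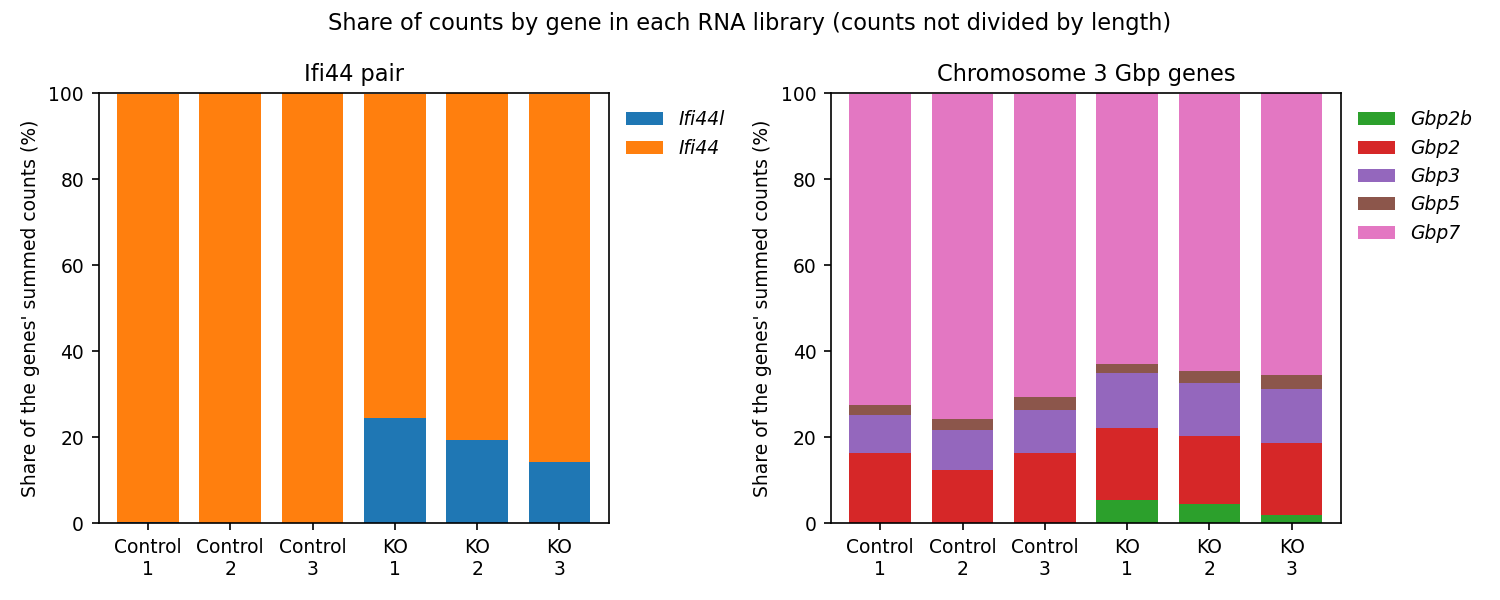
Share of summed counts (%) held by each gene of the Ifi44 pair (left) and of the 5 chromosome 3 Gbp genes (right), as stacked bars for the 6 RNA libraries. Ifi44l and Gbp2b form visible parts of the bars in the 3 Kdm6b-KO libraries, with 14.2% to 24.4% and 1.87% to 5.32%.

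The summed level of the 5 Gbp genes was 788, 1072 and 826 CPM in Control against 777, 649 and 703 CPM in Kdm6b-KO. Each Kdm6b-KO sum was below the lowest Control sum, and groups did not overlap for 20.5% of single tested genes either. Gbp7 made up at least 62.9% of the counts of the 5 genes in every library, so these sums largely repeat its values. The Ifi44 pair summed to 94.2, 117 and 130 CPM in Control and to 161, 149 and 102 CPM in Kdm6b-KO, with overlapping groups.

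Ifi44l and Gbp2b were also alike within the Kdm6b-KO group, although 9.09 Mb lies between their clusters. Counts of Ifi44l divided by counts of Gbp2b were 0.952, 0.989 and 1.10 in Kdm6b-KO replicates 1, 2 and 3. For both genes replicate 1 had the highest and replicate 3 the lowest CPM, at a ratio of 2.73 for Ifi44l and 3.15 for Gbp2b. Of 11448 tested genes with a mean of at least 5 CPM in Kdm6b-KO, 0.961% had a ratio of replicate 1 to replicate 3 at least as large as that of Ifi44l and 0.742% one at least as large as that of Gbp2b, and the median ratio was 0.959. Within Kdm6b-KO the summed neutrophil markers were also highest in replicate 1, with 4282, 192 and 191 CPM, as were the summed erythroid markers, with 227, 41.2 and 54.3 CPM, and their part in these values was not tested. The T cell genes Cd3e, Cd3d and Cd8a and the natural killer cell genes Ncr1 and Gzma had 10 or fewer counts each over all 6 libraries. The summed level of the 6 T cell markers, of which 2 were detected in every library, was 28.3 to 32.6 CPM in Control and 29.2 to 45.9 CPM in Kdm6b-KO, and that of the 6 natural killer cell markers 94.9 to 184 and 60.2 to 132 CPM.

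Over the 6 RNA libraries, the Pearson correlation of log2(CPM + 0.5) between Ifi44l and Gbp2b was 0.987. It was -0.044 between Ifi44l and Ifi44 and -0.589 between Gbp2b and Gbp2. The 5 other genes most like Ifi44l by this measure were Fam129b on chromosome 2 (0.993), Gm45104 (0.992), and Gm12663 (0.992), Per1 (0.991) and Dhx40 (0.989), all 3 on chromosome 11. Kdm6b lies on chromosome 11 too, and the part of this place in the values was not tested. Those most like Gbp2b were Pdgfa on chromosome 5 (0.995), Gm45104 (0.993), Flt3l on chromosome 7 (0.987), Pkig on chromosome 2 (0.985) and Itpr2 on chromosome 6 (0.982). The correlations describe 6 libraries that fall into the same groups for every gene, and 0.362% and 0.382% of tested genes exceeded 0.95 with Ifi44l and Gbp2b. These counts also chose Ifi44l, Gbp2b and their paralogs, so nothing is read from the correlations among those genes.

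High likeness did not always go with a like size of difference. Dhx40, a putative RNA helicase, averaged 6.73 ± 1.05 CPM in Control against 31.0 ± 1.10 CPM in Kdm6b-KO (SD, n = 3 each), and Per1, a circadian clock repressor, 4.50 ± 0.200 and 9.82 ± 0.310 CPM. Pkig, an inhibitor of protein kinase A, averaged 32.7 ± 1.28 and 41.5 ± 1.87 CPM. All 3 were clearly present in Control, unlike Ifi44l.

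The combination of near absence in one group and ample counts in the other was rare across the table. With at most 10 summed counts in one group, and at least 200 summed counts with 20 or more per library in the other, 3 genes were found, among 11600 with at least 200 counts in either group. Ifi44l was chosen from these counts for such a pattern, so nothing is read from its place among the 3. Ifi44l and the predicted gene Gm45104, with 2 counts in Control and 207 in Kdm6b-KO, were near absent in Control. Gm26836, with 374 counts in Control and 8 in Kdm6b-KO, was near absent in Kdm6b-KO. Gbp2b missed the limit with 24 summed Control counts, of which 15 were in Control replicate 3. That library was the deepest of Control, with 13797890 assigned counts, and the limit is not scaled to depth. In CPM, Gbp2b was at 0.919, 0.380 and 1.09 in Control replicates 1, 2 and 3. Leaving out 1 library at a time gave 2 to 7 such genes, Ifi44l among them each time. The 7 came without Control replicate 3 and included Gbp2b, along with Grap, Ltbp4, Pik3r6 and Prss34, which were named after their values were seen.

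The genes around both clusters were then read from the fit across all genes, in which 70 of 15185 genes (0.461%) passed edgeR's quasi-likelihood test (adjusted p under 0.05; such genes are referred to as called), 37 higher (0.244%) and 33 lower (0.217%) in Kdm6b-KO. An unadjusted p under 0.05 was reached by 2254 of them (14.8%), against which the counts at that limit are to be read. Of the 8 genes tested within 1 Mb of the Gbp cluster edgeR called none, with 1 at an unadjusted p under 0.05, while DESeq2 called 1 lower and limma-voom none. Mir6381, which lies inside the span of Gbp2, was at 2.72 ± 0.223 and 2.52 ± 0.519 CPM. The nearest tested genes on either side of the cluster were Pdlim5, at 27.8 ± 6.46 CPM in Control and at 25.2 ± 0.927 CPM in Kdm6b-KO (SD, n = 3 each), and Kyat3, at 40.6 ± 1.81 and 38.1 ± 7.11 CPM. Of the 10 genes tested within 1 Mb of the Ifi44 pair none was called by edgeR, DESeq2 or limma-voom, with 1 at an unadjusted edgeR p under 0.05. Adgrl4, an endothelial adhesion receptor gene on one side, was at 841 ± 80.6 and 713 ± 92.3 CPM, and Dnajb4, a heat shock protein gene on the other, at 51.8 ± 3.32 and 46.4 ± 2.66 CPM. The median log2 fold change was -0.10 around the Gbp cluster and -0.12 around the Ifi44 pair.

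No gene of the interferon lists below was among the genes near absent in Control. Ifi204, an interferon-stimulated gene named after its values were seen, was at 1.68 and 1.31 CPM in Control replicates 1 and 3. Its groups overlapped through Control replicate 2, above the 19.8 CPM of Kdm6b-KO replicate 3. Its log2 fold change was 1.97 with a standard error of 1.23 (edgeR adjusted p = 0.537). In Kdm6b-KO, 4 interferon-stimulated genes were higher without overlap, Slfn2 among them (log2 fold change 1.19, edgeR adjusted p = 0.114), and 10 lower. Of 52 tested interferon-stimulated genes, edgeR called 2 lower and 0 higher, with 10 at an unadjusted p under 0.05 and 1 called higher by DESeq2, and the list's median log2 fold change was -0.13. Ifit1bl1, a member of the interferon-induced tetratricopeptide repeat family, was at 14.7, 19.5 and 13.8 CPM in Control and fell to a mean of 3.87 ± 1.25 CPM (SD, n = 3; log2 fold change -2.03, standard error 0.34, edgeR adjusted p = 0.0116). Xaf1, an interferon-induced gene on chromosome 11 that promotes apoptosis, fell from 69.5 ± 5.34 to 30.1 ± 2.78 CPM (SD, n = 3 each; log2 fold change -1.21, standard error 0.19, edgeR adjusted p = 0.00840). Both calls were lost without certain libraries, at log2 fold changes of like size. Ifit1bl1 had an edgeR adjusted p of 0.0514 without Control replicate 2 (log2 fold change -1.86), 0.107 without Kdm6b-KO replicate 2 (-1.81) and 0.109 without Kdm6b-KO replicate 3 (-2.08), in a range of 3.20e-06 to 0.109 over 12 alternatives. Xaf1 had 0.0700 (-1.27) and 0.104 (-1.14) in edgeR without Kdm6b-KO replicates 2 and 3, in a range of 4.75e-06 to 0.104.

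The Gbp genes of chromosome 5, the family's other mouse cluster, gave no edgeR call among 6 tested, with 2 at an unadjusted p under 0.05, 1 called lower by DESeq2 and a median log2 fold change of -0.16. Gbp8 was at 31.0 ± 2.68 CPM in Control and at 32.3 ± 3.73 CPM in Kdm6b-KO (SD, n = 3 each), Gbp9 at 27.6 ± 7.25 and 29.9 ± 4.43 CPM, and Gbp4 at 29.0 ± 13.9 and 23.4 ± 5.19 CPM. Gbp10, named after its values were seen, was at 2.72 ± 2.08 and 0.293 ± 0.254 CPM, lower in Kdm6b-KO, with an edgeR adjusted p of 0.126. None of the 9 tested immunity-related GTPases, a second family of interferon-induced GTPases that acts on pathogen vacuoles, was called by edgeR, and 3 were called lower by DESeq2. Of these 9, 3 had an unadjusted p under 0.05 and 8 a negative log2 fold change, with a median of -0.44. Tgtp2 was at 368 ± 115 CPM in Control and at 177 ± 23.4 CPM in Kdm6b-KO (edgeR adjusted p = 0.0734), Ifi47 at 304 ± 28.3 and 281 ± 36.3 CPM, and Iigp1 at 287 ± 67.4 and 212 ± 38.7 CPM. Tgtp2 and Ifi47 lie on chromosome 11, as Kdm6b does, and Iigp1 on chromosome 18.

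Upstream of these genes, no interferon gene was measurable: the 9 on the list had 10 counts in all, at most 5 for any of them. None of the 22 tested interferon receptor and signalling genes was called by edgeR, with 5 at an unadjusted p under 0.05, 1 called higher by DESeq2 and a median log2 fold change of 0.03. Jak1, a kinase of both receptor types, was at 586 ± 105 CPM in Control and at 401 ± 59.6 CPM in Kdm6b-KO, Irf2, a repressor at interferon response elements, at 344 ± 34.5 and 340 ± 27.8 CPM, and the phosphatase gene Ptpn6 at 359 ± 76.6 and 384 ± 54.1 CPM (SD, n = 3 each). None of the 17 genes of antigen processing that interferon gamma induces was called by edgeR, DESeq2 or limma-voom, with 3 at an unadjusted edgeR p under 0.05 and a median of 0.15. Of the class I genes among them, B2m was at 3681 ± 559 and 3839 ± 914 CPM, H2-K1 at 2341 ± 1134 and 1807 ± 227 CPM, and H2-D1 at 891 ± 537 and 1367 ± 155 CPM. For each of these 5 lists with tested genes limma-voom made as many calls as edgeR in either direction.

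**Figure D3:**
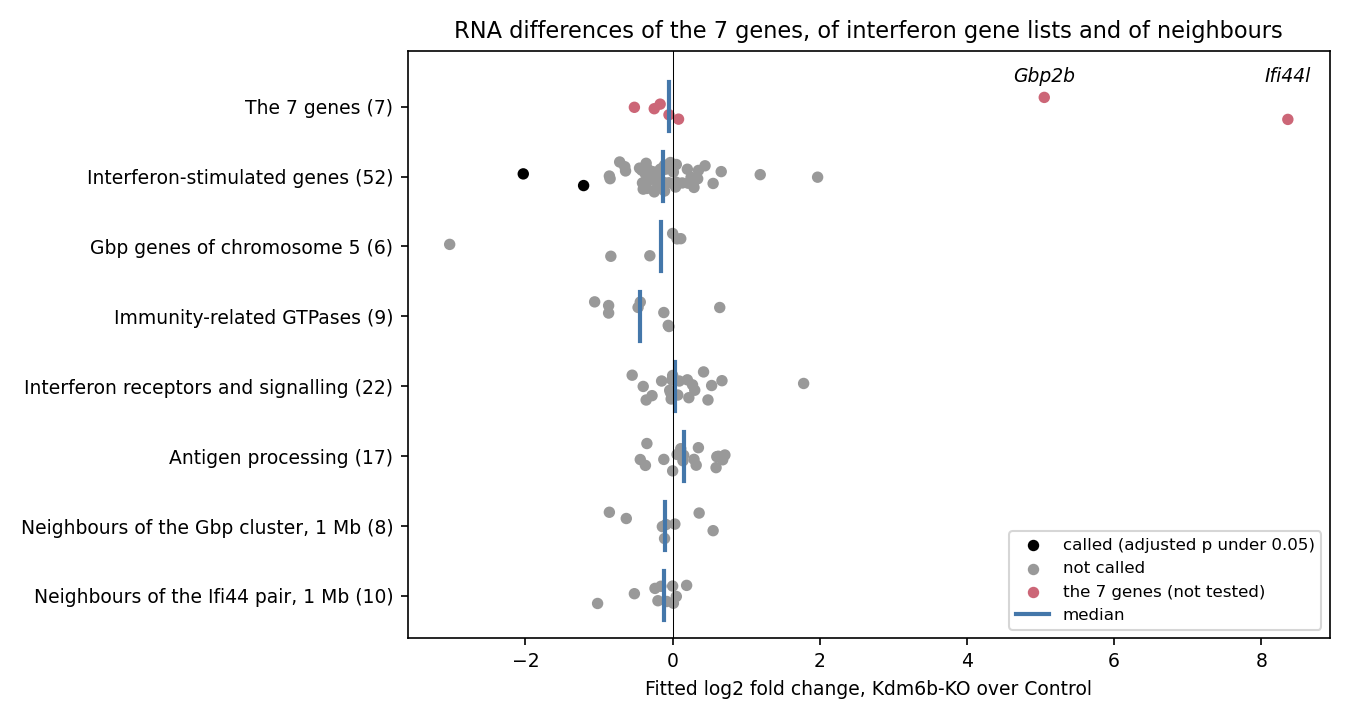
Fitted log2 fold change (Kdm6b-KO over Control) of the 7 genes, of 5 interferon gene lists and of tested genes within 1 Mb of either cluster, with points for genes, black for called genes and blue ticks for medians. Gbp2b at 5.05 and Ifi44l lie apart from all other points, and the place of Ifi44l depends on a small count added by the fit, since Control held 2 counts.

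Chromatin accessibility at the 7 genes was read from the deposited ATAC peak lists, with no test. The fold enrichment and the −log10 q of a peak are the authors' values for it in its own library, given to describe it and not compared between libraries. Lists held 44739 to 62125 peaks in Control and 53692 to 69729 in the libraries titled 6bKO, and read depth is unknown. Peaks of the 6 lists were merged into 149774 regions, of which 36 lay inside or within 50 kb of the 7 genes, 26 at the Gbp cluster and 10 at the Ifi44 pair. Of these, 5 were found in all 6 libraries, as were 13.0% of all regions, and 20 in a single library.

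Gbp2b had no peak near its start in any library, although its RNA was present in every Kdm6b-KO library. No region of any list lay between 33.8 kb before and 11.7 kb after the start of the gene. This lack is not read as closed DNA. Read depth is unknown, and how well ATAC reads could be placed among the near copies was not tested. The 4 regions assigned to Gbp2b were each found in 1 library only, 2 in libraries titled 6bKO and 2 in Control. No library had a peak in the window from 250 bases before to 50 after its start site, as for 54.9% of 32851 promoter windows. Among 6330 genes with at least 20 CPM in Kdm6b-KO, 426 (6.73%) had no such peak in any library.

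Ifi44l, in contrast, had a region over its start in both groups. This region, chr3:151762336-151763036, reached from base -145 to base 555 relative to the start. It had a peak in the ATAC libraries titled Control 2 and 3, with a fold enrichment of 8.09 and 5.89, and in the libraries titled 6bKO 1, 2 and 3, with 6.19, 5.02 and 8.04. The library titled Control 1 had none. Within the window from 250 bases before to 50 after the start site, 2 libraries of each title group had a peak, since the one of 6bKO 2 lay farther inside the gene. A start with peaks thus stood beside 2 counts of Ifi44l in the 3 Control RNA libraries.

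At Ifi44 the order was the other way round, with a difference in peaks and overlapping RNA values. A region over its start, chr3:151749808-151750107, had peaks in the libraries titled 6bKO 1, 2 and 3, with a fold enrichment of 9.18, 5.74 and 7.20 and a −log10 q of 12.1, 7.51 and 10.4, and none in any Control library. It was the only one of the 36 regions found in all 3 libraries of one title group and in none of the other. Of all 149774 regions, 1.30% were found in all 3 libraries titled 6bKO and in 0 titled Control, and 0.288% the other way, 1.59% in all. Of 32851 promoter windows, 80 (0.244%) had peaks in the same arrangement as Ifi44 and 0.0791% in the opposite one. The lists titled Control 1, 2 and 3 held 47450, 44739 and 62125 peaks and those titled 6bKO 63682, 53692 and 69729, and the part of these numbers in the difference was not tested. A second region inside the gene, chr3:151742297-151742650, had peaks in all 3 Control libraries and in 1 titled 6bKO.

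The other Gbp genes had peaks common to both title groups. Regions over the starts of Gbp7 (chr3:142530038-142530977) and Gbp2 (chr3:142620491-142620963) were found in all 6 libraries, and the one at Gbp2 covered the response element core printed in capitals. The fold enrichment at Gbp7 was 9.49, 5.25 and 8.41 in Control and 8.44, 13.1 and 13.7 in the libraries titled 6bKO, and at Gbp2 4.79, 6.64 and 4.21 against 5.50, 5.71 and 5.62. Gbp3 had a region from 204 to 975 bp after its start in all 6 libraries, with a fold enrichment of 7.88, 8.34 and 14.7 in Control and of 14.1, 12.3 and 18.3 in those titled 6bKO. Gbp5 had none over its start, but a region from base -3420 to base -2799 relative to it was found in all 6 libraries, and another from 205 to 827 bp after it in 2 titled Control and 1 titled 6bKO.

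**Figure D4:**
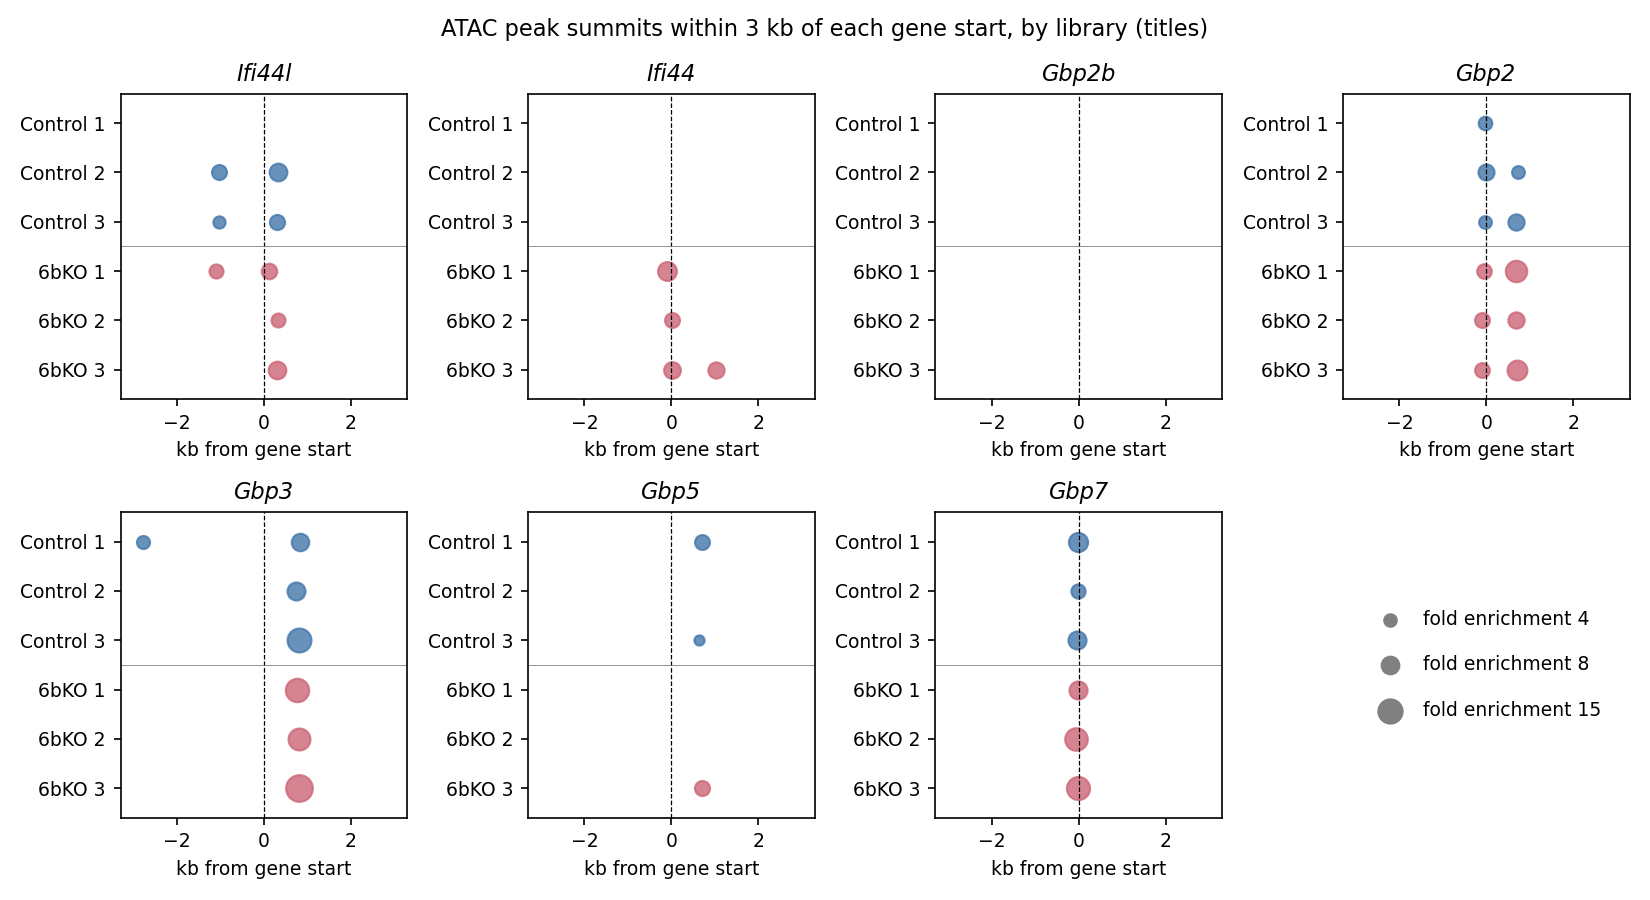
ATAC peak summits within 3 kb of the start of each of the 7 genes (distance in kb along the gene's strand), a row for each library by title, with the area of a dot set by the authors' fold enrichment. No library has a summit near the start of Gbp2b, the start of Ifi44l has summits in both title groups, and that of Ifi44 in the 3 libraries titled 6bKO alone.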

How the data were processed

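The authors deposited raw read counts by Ensembl gene ID for each RNA library. The submitters' processing notes name HTSeq 0.8.0, Partek 6.6, STAR 2.0.4 and featureCounts 1.4.5 of Subread, without roles, and build mm10. Closing lines of unassigned reads were left out, and 16.5% to 19.7% of reads were assigned to genes. Of 49671 IDs, 49326 matched a symbol.

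The 7 genes, the lists and the tests were chosen with earlier results of these data known. The test across genes was that of edgeR 4.0.16, run in R 4.3.3 (filterByExpr, TMM, robust quasi-likelihood test on genotype, two-sided, Benjamini-Hochberg over 15185 genes, threshold 0.05). P-values measure the spread between these libraries. CPM use TMM-scaled library sizes. Intervals cover counting error only. The test was also run on simulated data, drawn from the means, library sizes and dispersions of these libraries. Named were the 7 genes, from each list up to 4 called per direction or the 3 of highest mean CPM, the nearest measured neighbours, the 5 genes most correlated with Ifi44l and with Gbp2b, and every near-absent gene.

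For ATAC the same notes name MACS2, BWA 0.7.16a and cutadapt 1.16. The deposited lists give each peak a score, a fold enrichment (a ratio) and p and q as −log10 values. The score was not used. Peaks that shared 1 bp or more were joined into regions. Positions, starts and promoter windows came from RefSeq tables of GRCm38.p6, the assembly of mm10, which give no exons. Of 20 samples, 8 of chromatin immunoprecipitation and input were not analysed here. Alternatives were other scalings, no filter, the replicate number as a block, DESeq2 1.42.0, limma-voom 3.58.1, each library left out, and stricter count and peak limits.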

Additional observations from a re-analysis of the deposited data

How the results depend on the processing

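Most named-gene values kept their direction and side of the threshold, 295 of 323 over 12 alternatives. Gbp2b stayed between 4.65 and 5.44 (log2) and the log2 ratio of summed Ifi44l counts between 7.47 and 9.06 when any 1 library was left out; Ifi44l gives no value with the replicate block. Scaling to library totals moved the median of all genes to 0.15 and Gbp2 to -0.02, and called 70 genes higher and 30 lower. Without the filter 249 were higher and 327 lower, with DESeq2 189 and 278, and with 1 library left out 13 to 187 and 7 to 332. The replicate block called 53 lower. The deviations of same-numbered libraries had correlations of 0.0461, 0.165 and -0.107, and those of unlike number -0.187 to 0.110. With 3 libraries per group, these values cannot decide whether the numbers pair the libraries. In the lists, 1 interferon-stimulated gene was called higher without the filter, with the replicate block and with DESeq2 (0 to 1 with 1 library left out), and 0 to 4 lower with 1 left out. Without the filter and with DESeq2 alike, 1 chromosome 5 Gbp gene and 3 immunity-related GTPases were called lower and 1 receptor or signalling gene higher; leaving out 1 library gave 0 to 3 immunity-related GTPases lower and 0 to 1 antigen processing gene higher. DESeq2 called 1 neighbour of the Gbp cluster lower. Near-absent genes numbered 2 to 7 with 1 library left out.

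Signs near 0 turned for Ifi44 (0.10), Ifi47 (0.03), Irf2 (0.13), Pdlim5 (0.00) and Kyat3 (0.06) with library totals and for Irf2 (0.02) without the filter. With 1 library left out, the log2 fold change ranged from -0.17 to 0.09 for Ifi44, -0.04 to 0.21 for Gbp3, -0.04 to 0.13 for Gbp8, -0.09 to 0.24 for Gbp9, -0.63 to 0.05 for Gbp4, -0.07 to 0.22 for Ptpn6, -0.09 to 0.06 for Irf2, -0.13 to 0.21 for B2m, -0.62 to 0.09 for H2-K1, -0.30 to 0.03 for Pdlim5 and -0.23 to 0.04 for Kyat3. Requiring a −log10 q of at least 5 left 1 region in all Control and no 6bKO lists; leaving out 1 list gave 0 to 1 such region and 1 to 2 in the other direction. The causes were not tested.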
